A study of Oryctolagus cuniculus with 16 samples.

Results

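The genes described are the angiotensin receptors AGTR1 and AGTR2 and the membrane peptidases ACE and MME, 4 of the 2127 genes that could be named on the array. All probes of these genes were found by looking up the RefSeq accession that the scanner file pairs with each probe in a table of rabbit gene symbols, and they came to 15 of the 43603 probes. AGTR1 had 1 probe, AGTR2 had 5, ACE had 6 from 2 accessions and MME had 3. No listed gene was without a probe. A probe is named here by its number on the array without the shared prefix A_04_, and a level is the normalised log2 signal of that probe. Levels are compared between groups within 1 probe. Across probes they serve only to rank brightness, to sum markers and to compare the patterns of 2 probes or genes.

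The vein wall was sampled in male rabbits. Vein grafts were removed 1 day after surgery (the day 1 group) or 7 days after surgery (the day 7 group), and veins of a control group that underwent sham surgery were taken without a time point in the labels. Day 7 was the time point of main interest to the study. Total RNA was labelled with Cy3 and hybridised to 16 one-colour Agilent arrays, of which 6 were day 1, 6 were day 7 and 4 were sham. No drug, transgene or strain is named for any group, and the RNA is that of whole vein tissue with all its cell types.

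Angiotensin II is a peptide that constricts vessels and stimulates growth and matrix production in the vessel wall. ACE (angiotensin-converting enzyme) makes it by cutting angiotensin I and also degrades bradykinin, and MME (neprilysin) cuts natriuretic peptides, bradykinin, enkephalins and angiotensin I. AGTR1 carries out the constrictor and growth effects through Gq proteins in smooth muscle cells, while AGTR2, abundant mainly in fetal tissue, is generally held to oppose them.

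Several arrays of a group differed by less than the spots of 1 probe on the same array did. Arrays joined by such differences were averaged and counted as 1 sample, which left 2 day 1 samples (1 and 2), 2 day 7 samples (1 and 2) and 3 sham samples (1 to 3). Sham sample 3 is the mean of arrays 3 and 4, whose variance ratio to spot noise was 0.867. It stood apart from the other sham samples, with an SD of the log2 difference between arrays of 0.73 to 0.74. All sham arrays were scanned together and apart from the graft arrays, so that in a comparison with sham the scan and the surgery cannot be told apart. Day 1 and day 7 arrays shared their 3 scans. Each of these scans held 1 array of every graft sample, so that differences within scans repeat the same samples and do not add to them. Among all probes, 49.8% were called on day 1 against sham, 33.0% on day 7 against sham and 40.5% on day 7 against day 1. Called means an adjusted p below 0.05 (limma, Benjamini-Hochberg over all probes) and an absolute log2 fold change (log2FC) of at least 1.

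Against these shares, 14 of the 15 probes passed the filter on dim probes and were tested, since AGTR2 P003882 was not well above background on any array. On day 1 against sham 6 of 14 were called, 1 higher and 5 lower, where 25.2% of all probes were called higher and 24.5% lower. On day 7 against sham 9 of 14 were called, 1 higher and 8 lower, where 17.5% of all probes were called higher and 15.4% lower. On day 7 against day 1 the count was 8 of 14, with 2 higher and 6 lower, beside 21.3% and 19.2% of all probes. The median log2FC of the 14 probes was 0.03 on day 1 and -2.13 on day 7 against sham, beside 0.12 and 0.04 for all probes. Of the 9 probes called on day 7, 5 belong to 1 ACE transcript, so that the counts weight that gene most. AGTR2 P002912 and P002913 passed the filter through the sham group alone and P003881 through day 7 alone, so that these had to differ between groups and their calls carry no weight. Of the 9 probes well above background on all 16 arrays, 2 were called on day 1 and 7 on day 7 against sham, and 7 on day 7 against day 1. Among all probes that passed this limit, the calls in these comparisons were 14107 of 29707, 9182 of 29664 and 11324 of 29666.

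**Figure D1:**
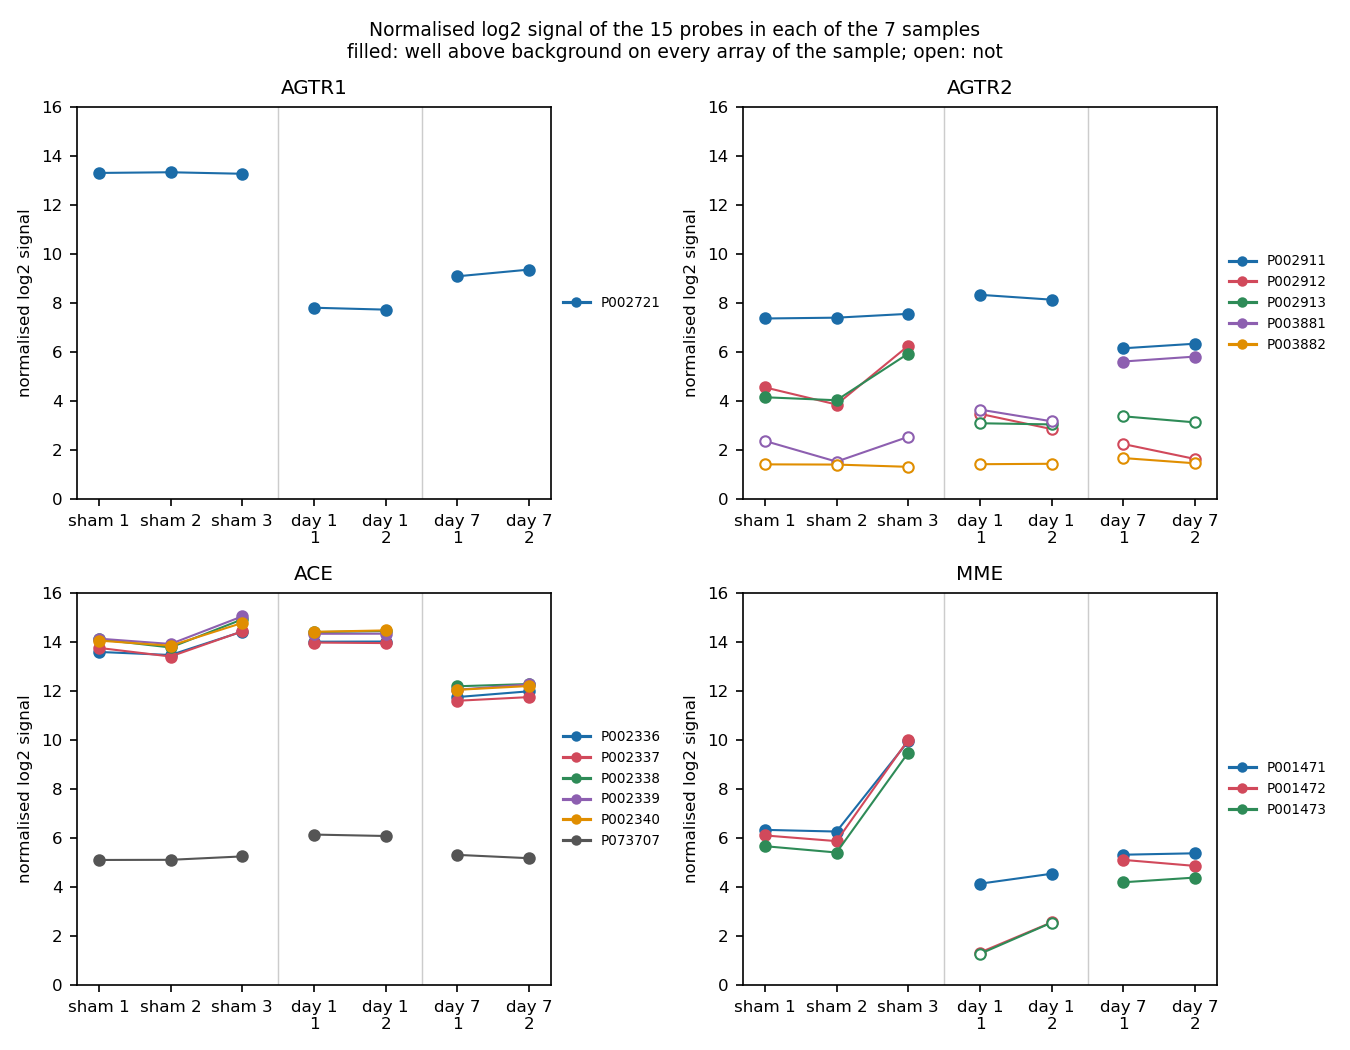
Normalised log2 signal (vertical axis) of the 15 probes in each of the 7 samples (horizontal axis), 1 panel per gene and 1 colour per probe; filled points passed the background limit on all arrays of the sample and open points did not. AGTR1 falls from 13.3 in sham to 7.8 on day 1 and is at 9.2 on day 7, 5 ACE probes are low on day 7 alone, and all 3 MME probes are highest in sham sample 3.

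AGTR1, the receptor through which angiotensin II constricts vessels, was strongly down-regulated in both graft groups and was higher again on day 7 than on day 1. Its log2 signal on P002721 was 13.31, 13.34 and 13.28 in sham samples 1, 2 and 3. It was 7.81 and 7.73 in the day 1 samples and 9.09 and 9.36 in the day 7 samples. The 3 groups did not overlap, the sham samples were the highest and the day 1 samples the lowest, and all 3 sham samples lay close together, sample 3 included.

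On day 1 AGTR1 was down-regulated by 46.5-fold (log2FC -5.54, SE 0.12, limma adjusted p = 1.33e-06). On day 7 it was 16.9-fold below sham (log2FC -4.08, SE 0.12, limma adjusted p = 4.63e-06). Between day 1 and day 7 it rose 2.75-fold (log2FC 1.46, SE 0.13, limma adjusted p = 0.000184), so that the day 7 grafts had regained part of the sham level. Within each of the 3 shared scans, which hold arrays of the same samples, the rise was 1.44 to 1.47 on the log2 scale.

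The probe is printed on the array as 5 spots, each of which can be read on its own. Before normalisation the AGTR1 signal was 7539 to 11710 intensity units on the sham arrays, 134.5 to 163.7 on day 1 and 894.5 to 1028 on day 7, and all 16 arrays had it well above background. The local background beside the spots was 14.9 to 23.2 units. Read spot by spot, the day 1 log2FC ran from -5.58 to -5.50, the day 7 log2FC from -4.12 to -4.03 and the difference between day 7 and day 1 from 1.39 to 1.53. The SD between the 5 spots of an array was 0.04 to 0.11, so that the 3 groups were farther apart than the spots.

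In these whole-tissue samples, fewer cells of a type and less RNA per cell cannot be told apart. Of 13 smooth muscle markers 5 had a named probe, of which 4 were called lower on day 1 and 4 on day 7. Of the brightest probes of all genes and transcripts, 22.0% and 13.8% were called lower on these days. ACTA2, smooth muscle actin, had a log2FC of -5.24 on day 1 and -0.59 on day 7, the latter not called. MYH11, the smooth muscle myosin heavy chain, had -5.50 and -6.66, and it was lower on day 7 than on day 1 (log2FC -1.16). The summed signal of the 5 markers was 504000 to 782000 in the sham samples, 181000 to 183000 on day 1 and 268000 to 300000 on day 7. Most of the day 1 sum is CALD1, which was not called on day 1 (log2FC -0.34). Its log2 signal was 17.37 and 17.38 in the day 1 samples, where ACTA2 was at 13.09 and 13.02. The sum thus does not show the day 1 falls of the other markers. The part of the muscle cell content in the AGTR1 values was not tested.

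**Figure D2:**
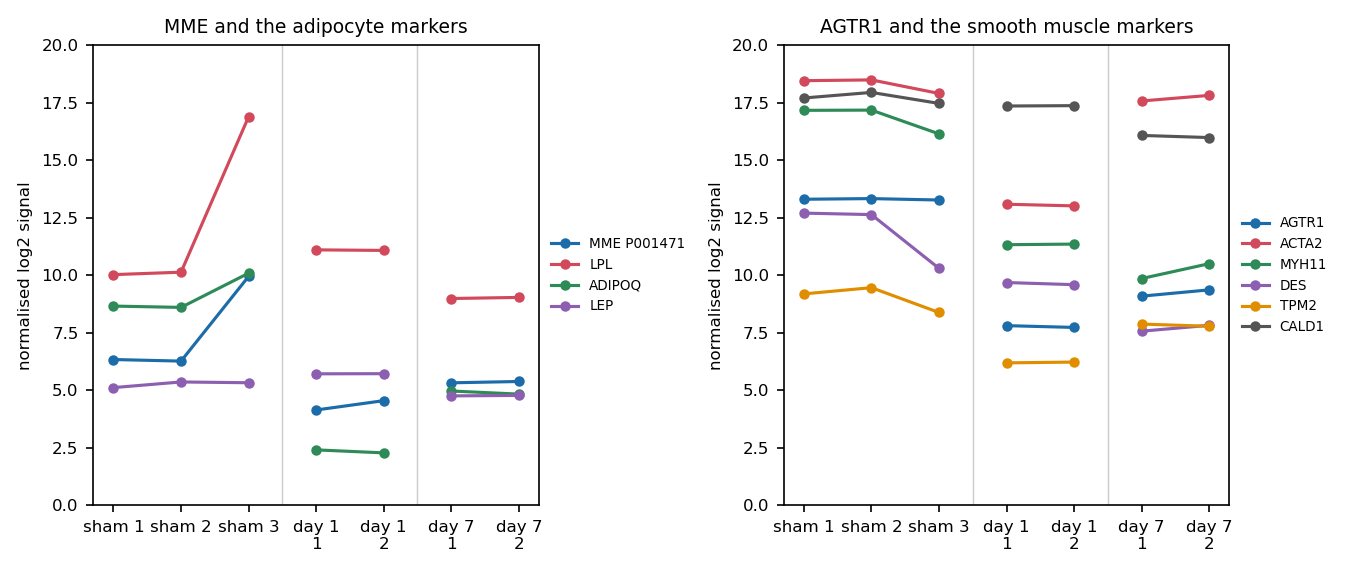
Normalised log2 signal (vertical axis) in each of the 7 samples (horizontal axis) of MME with 3 adipocyte markers (left) and of AGTR1 with 5 smooth muscle markers (right). MME and LPL are both high in sham sample 3 (9.95 and 16.90), where AGTR1 is at 13.28 as in the other sham samples.

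AGTR2, the second angiotensin receptor, was measured by 5 probes of 1 accession that did not give 1 answer. The brightest of them, P002911, fell on day 7, P003881 was above background on all arrays of day 7 alone, and P003882 stayed at background. All 5 gave weak signals, between 1.69 and 221.8 intensity units over the 16 arrays.

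P002911 passed the background limit on all 16 arrays. Its log2 signal was 7.37, 7.40 and 7.56 in the sham samples, 8.33 and 8.14 on day 1 and 6.15 and 6.34 on day 7. The day 1 samples were the highest, the day 7 samples the lowest, and the groups did not overlap. Its log2FC was 0.79 on day 1 (SE 0.12, limma adjusted p = 0.00148), below the fold threshold. On day 7 it was lower than sham by a log2FC of -1.20 (SE 0.12, limma adjusted p = 0.000395), and it was lower than on day 1 by -1.99 (limma adjusted p = 7.76e-05).

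P003881 moved the other way on day 7. It read 2.37, 1.53 and 2.54 in the sham samples, 3.65 and 3.17 on day 1, and 5.61 and 5.81 on day 7. No sham array, 2 of the 6 day 1 arrays and all 6 day 7 arrays were well above background. For a group with no array above background only a bound can be given, and each such array is then set to the lowest signal of any probe well above background on it. Measured this way, P003881 was at least 6.32-fold higher on day 7 than in sham, and at least 6.21-fold without sham sample 3. On day 1, with 4 of 6 arrays not above background as well, no rise over sham is given. Between day 1 and day 7 its log2FC was 2.30, and 1.86 to 2.82 within the 3 shared scans of the same samples. These sizes are given without a test, since the probe was kept only for its day 7 signal.

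P002912 and P002913 gave a signal in the sham group and were dim in the grafts. P002912 read 4.56, 3.86 and 6.25 in the sham samples, 3.48 and 2.85 on day 1 and 2.24 and 1.63 on day 7. P002913 read 4.15, 4.03 and 5.94 in sham, 3.09 and 3.04 on day 1 and 3.38 and 3.13 on day 7. Both were well above background on all 4 sham arrays and highest in sham sample 3, and P002912 passed on 1 of 12 graft arrays and P002913 on none.

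On day 7 P002912 was at least 2.33-fold and P002913 at least 2.03-fold lower than in sham, and on day 1 P002913 was at least 2.12-fold lower. Sham sample 3 carried much of this, since without it the bounds were 1.45-fold, 1.32-fold and 1.38-fold. Both probes were kept only for their sham signal, and the bounds are descriptions without a test. The fitted calls were unstable too. That of P002912 on day 7 was lost without day 7 sample 2 (log2FC -2.65). That of P002913 on day 1 was lost without any 1 of the graft samples (log2FC -1.66 to -1.61), with scaling of each array to its 75th percentile (log2FC -0.80, limma adjusted p = 0.21) and with a fit of only the compared groups (limma adjusted p = 0.0682). With a model-based background correction (normexp), which adds an offset to every signal, none of the AGTR2 calls against sham was kept, and P003881 then had a log2FC of 0.50 on day 7.

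The difference between probes was tested itself, by fitting the difference of 2 probes of a gene over the samples. For AGTR2, 4 of 6 pairs of tested probes disagreed on day 7 against sham, 4 of 6 on day 1 against sham and 5 of 6 on day 7 against day 1. Among the pairs of all named genes 5.61%, 12.5% and 11.8% disagreed in the same comparisons, and among those of all genes and transcripts 3.97%, 8.88% and 8.39%. In each AGTR2 pair at least 1 probe was not well above background on some array of the groups compared, so that these counts are descriptions and the size of a gap is not given. On day 7 P002911 was lower than sham while P003881 was at least 6.32-fold higher. No single direction can be given for AGTR2 from these probes, and the probe sequences that could separate them were not used here.

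ACE, the enzyme that makes angiotensin II, had a level within the range of the 3 sham samples on day 1 and was down-regulated on day 7. Its 5 probes of the accession NM_001082395 moved together. The sixth, P073707, belongs to the accession NM_001171069, a second transcript of the gene, and behaved differently. The ACE gene is known to give a long somatic and a short germ cell transcript, and the symbol table does not say which accession is which.

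Over the 5 probes, the log2 signal was 13.59 to 14.14 in sham sample 1, 13.41 to 13.92 in sham sample 2 and 14.43 to 15.05 in sham sample 3. It was 13.98 to 14.42 and 13.96 to 14.47 in the day 1 samples, and 11.60 to 12.19 and 11.75 to 12.29 in the day 7 samples. For each probe the day 1 samples lay between the lowest and the highest sham sample, and the day 7 samples lay below both other groups.

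For the brightest of them, P002338, the log2 signal was 14.11, 13.78 and 14.92 in sham, 14.40 and 14.45 on day 1 and 12.19 and 12.29 on day 7. On day 7 it was 4.09-fold below sham (log2FC -2.03, SE 0.32, limma adjusted p = 0.0023) and 4.55-fold below day 1 (log2FC -2.19, SE 0.35, limma adjusted p = 0.00226). All 5 probes were called in both comparisons, with log2FC from -2.20 to -1.96 against sham and from -2.32 to -2.15 against day 1. Within the shared scans, which hold arrays of the same samples, the latter difference ran from -2.32 to -2.12 over the 5 probes.

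On day 1 none of the 5 probes was called, and their log2FC ran from -0.03 to 0.22. Their 95% confidence intervals together span -0.83 to 0.94. Without sham sample 3 they were 0.31 to 0.49 higher than sham (limma adjusted p = 0.0064 to 0.0495), none past the fold threshold, so that this sample decides whether a small rise was measured. The sign of these small values turned for 3 of the 5 probes with other settings. The signals before normalisation were 7919 to 26130 units on the sham arrays, 9110 to 14610 on day 1 and 5160 to 8400 on day 7, far from the local background on every array.

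P073707 gave a weak signal that was well above background on all 16 arrays. It read 5.10, 5.11 and 5.25 in sham, 6.14 and 6.08 on day 1, and 5.31 and 5.18 on day 7. The day 1 samples were above all others, and sham and day 7 overlapped. Its log2FC was 0.96 on day 1 (SE 0.10, limma adjusted p = 0.000285), just under the fold threshold, 0.09 on day 7 (limma adjusted p = 0.493) and -0.87 between day 7 and day 1 (limma adjusted p = 0.00098).

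All disagreements within ACE were between P073707 and the other probes. They were 5 of 15 pairs on day 7 against sham and 5 of 15 on day 7 against day 1, and 0 of 15 on day 1 against sham. On day 7 against sham the 5 differences ran from -2.29 to -2.05 on the log2 scale. For P073707 alone, the day 1 log2FC was 1.00 and called without sham sample 3. With scaling to the 75th percentile it was 1.54 on day 1 (limma adjusted p = 3.02e-05) and -1.77 between day 7 and day 1 (limma adjusted p = 5.56e-05), both called. Other settings gave smaller values, down to 0.34 on day 1 and to -0.33 between day 7 and day 1. Neither was called in any setting not named here.

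Endothelial cells carry much of the ACE of a vessel, and macrophages can make it as well. Of 10 endothelial markers 3 had a named probe, and all 3 were called lower on day 7, where 13.8% of all brightest probes were. Among them was NOS3, endothelial nitric oxide synthase, with a log2FC of -2.98. On day 1 2 of the 3 were called lower, beside 22.0% of all brightest probes. They were NOS3 (-1.34) and KDR, a receptor of vascular endothelial growth factor, while THBD, thrombomodulin, was at -0.15 and not called. KDR was not well above background on any graft array and was kept only for its sham signal, so that its calls carry no weight. It was at least 1.92-fold below sham on day 1 and at least 1.86-fold on day 7. The summed signal of the 3 was 8870 to 9490 in sham, 7920 to 8050 on day 1 and 3550 to 3750 on day 7, of which THBD made up 94.2% to 98.3%. The 2 macrophage markers with a named probe, CD14 and MSR1, of 10 listed, rose in both graft groups, with a sum of 1840 to 3760 in sham, 137000 to 141000 on day 1 and 105000 to 114000 on day 7. The part of either cell type in the ACE values was not tested.

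**Figure D3:**
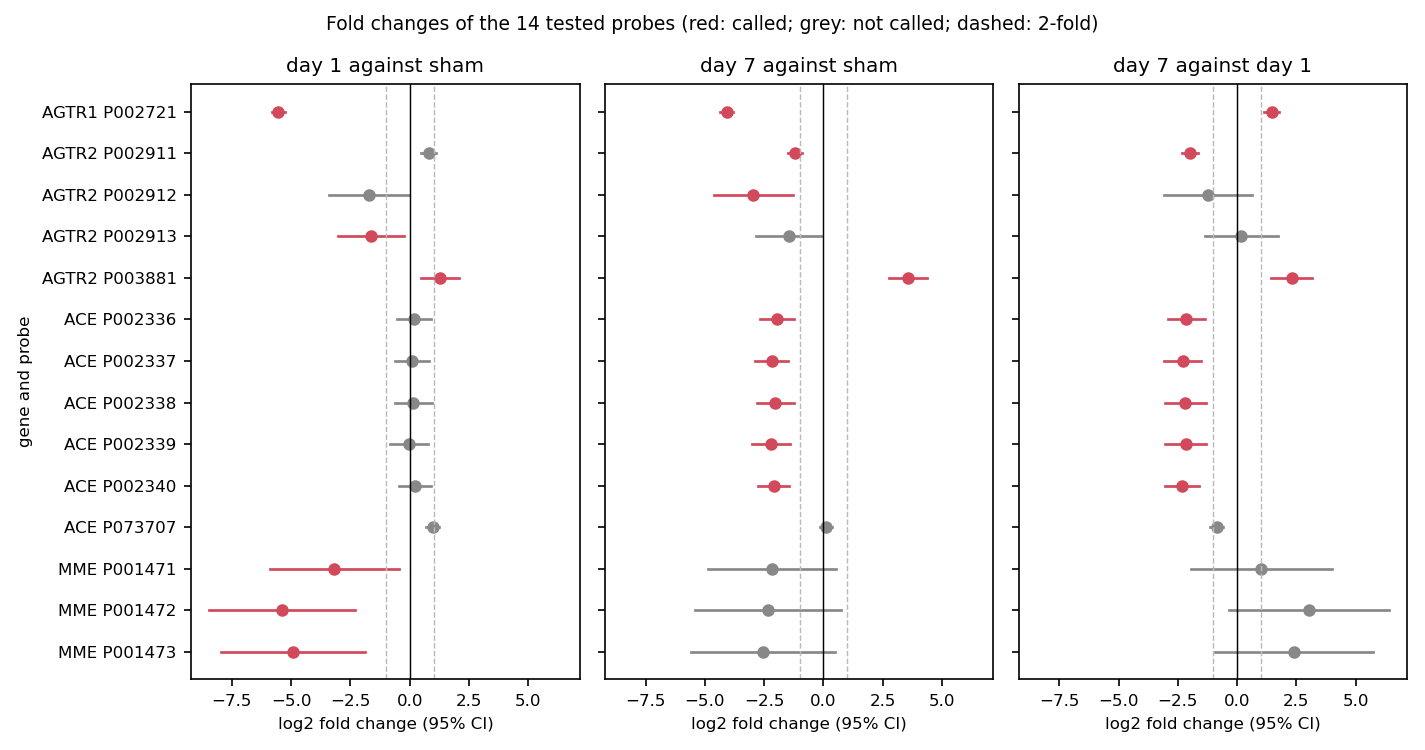
Log2 fold change (horizontal axis, point) with its 95% confidence interval (bar) for the 14 tested probes (vertical axis) in the 3 comparisons, red where called and grey where not, with dashed lines at 2-fold. The 5 upper ACE probes lie near 0 on day 1 and near -2 on day 7, AGTR2 probes lie on both sides of 0, and the MME intervals are the widest. Points of AGTR2 P002912, P002913 and P003881 and of MME P001472 and P001473 rest on groups at background and are fitted values, not bounds.

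MME, the peptidase that cuts natriuretic peptides and enkephalins, was down-regulated on day 1 on all 3 of its probes, and its level in sham differed most between samples. P001471 read 6.33, 6.26 and 9.95 in the sham samples, 4.14 and 4.54 on day 1, and 5.32 and 5.38 on day 7. P001472 read 6.11, 5.87 and 10.01 in sham, 1.33 and 2.56 on day 1, and 5.11 and 4.86 on day 7. P001473 read 5.67, 5.41 and 9.48 in sham, 1.27 and 2.55 on day 1, and 4.19 and 4.39 on day 7. On each probe the sham samples were the highest, the day 1 samples the lowest and the day 7 samples between them, without overlap, and sham sample 3 stood far above the other sham samples.

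On day 1 P001471 had a log2FC of -3.18 (SE 1.11, limma adjusted p = 0.0398). The other probes were not well above background on any day 1 array, so that only bounds hold. P001472 was at least 13.0-fold lower than sham and P001473 at least 9.37-fold lower. The limma adjusted p-values of 0.00857 and 0.0115 test the fitted log2FC of -5.39 and -4.94. Those fitted values use the day 1 signals at background, and the bounds themselves were not tested. Without sham sample 3 these bounds were 5.15-fold and 3.77-fold. Without day 1 sample 1 none of the 3 calls was kept, with log2FC of -2.97, -4.77 and -4.31, and the call of P001471 was also lost without any other graft sample and with only the compared groups (limma adjusted p = 0.0712). None was kept with the normexp correction (log2FC -1.66 to -1.39).

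On day 7 no MME probe was called against sham. The log2FC were -2.17, -2.35 and -2.56 with SE of 1.11 to 1.26 and limma adjusted p-values of 0.122 to 0.156, and the intervals reach from -5.60 to 0.74. Between day 1 and day 7 the log2FC of P001471 was 1.01, and P001472 was at least 2.57-fold and P001473 at least 1.59-fold higher on day 7, with no overlap of samples. None of the 3 fitted log2FC was called (limma adjusted p = 0.0989 to 0.497), and the bounds were not tested. All 3 fitted log2FC were called with a fit of only the 2 graft groups (limma adjusted p = 0.00266 to 0.00676). They were also called with the scan as a fixed block and graft arrays as separate samples. That setting counts arrays of 1 sample several times, so its p-values are not given.

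The spread of the sham group sets these p-values, and sham sample 3 makes up most of it. Without that sample the log2FC on day 1 were -1.96, -4.05 and -3.63, all called, and the 3 differences between day 7 and day 1 were called as well. On day 7 against sham they were then -0.95, -1.01 and -1.25, of which that of P001473 was called (limma adjusted p = 0.0345). All 6 values against sham stayed below 0.

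Some markers of fat cells were higher in sham sample 3, as MME was, and so were the sums of neutrophil and macrophage markers. LPL, lipoprotein lipase, was at 10.03, 10.13 and 16.90 in sham samples 1, 2 and 3, and ADIPOQ, the hormone adiponectin, at 8.66, 8.60 and 10.09. LEP, leptin, did not stand apart in sham sample 3. The summed signal of these 3 of 6 listed adipocyte markers was 1480 to 123000 in the sham samples, 2220 to 2260 on day 1 and 566 to 580 on day 7. LPL was the brightest of the 3 in every sample, so that the sum mostly follows LPL (11.11 and 11.08 on day 1). ADIPOQ was not well above background on any day 1 array and was at least 45-fold below sham there. DES, the muscle protein desmin, was at 12.70 and 12.64 in sham samples 1 and 2 and at 10.30 in sample 3. The part of the tissue content of sham sample 3 in the MME and AGTR2 values was not tested.

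On day 1 against sham 2 of 3 pairs of MME probes disagreed, both of P001471 with a probe that was at background on day 1, so that the amounts by which they fell cannot be compared. On day 7 against sham 0 of 3 pairs disagreed, with a widest gap of 0.40. Over all 4 genes, 9 of 24 pairs disagreed on day 7 against sham, 6 on day 1 against sham and 12 on day 7 against day 1.

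The genes that act before and after these receptors and enzymes were looked up from lists. Only 2 of 19 other genes of the renin-angiotensin system had a named probe, and the others were not analysed here. ANPEP, an aminopeptidase that trims angiotensin III, was well above background on 2 of 4 sham arrays, on no day 1 array and on all 6 day 7 arrays. Its signal was at least 2.82-fold higher on day 7 than on day 1 and was not called against sham. This size is given without a test, since the probe was kept only for its day 7 signal. KLK1 is a kallikrein that releases kinins. It was well above background on 3 of 4 sham arrays, all 6 day 1 arrays and no day 7 array. Its log2FC was 1.02 on day 1, and on day 7 it was at least 1.78-fold lower than on day 1. The probe was kept only for its day 1 signal, so these sizes are likewise given without a test.

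Of 11 other membrane peptidases only CPD, a carboxypeptidase, had a named probe, and its brightest probe was not called in any comparison (log2FC -0.47 on day 1 and -0.65 on day 7). In the systems whose peptides ACE and MME cut, 9 of 24 genes were tested by their brightest probe, and 4 rose and 3 fell on day 1. Of the brightest probes of all genes and transcripts 50.7% were called there, 28.7% higher and 22.0% lower. On day 7, by contrast, 2 rose and 2 fell, beside 31.4% of all, 17.6% higher and 13.8% lower. The median log2FC of the 9 was 0.85 on day 1 and -0.12 on day 7, beside 0.26 and 0.04 for all genes and transcripts by their brightest probe.

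EDN1, the precursor of the constrictor endothelin, rose on day 1 with a log2FC of 2.40, and BDKRB1, the inducible kinin receptor, with 1.99 on day 1 and 1.61 on day 7. EDNRA, the endothelin receptor of smooth muscle, had 1.47 on day 1 by its brightest probe, but its other 2 probes were called lower, the lowest with -6.56. PENK, the enkephalin precursor, fell by 3.81 on day 1 and by 7.89 on day 7 on the log2 scale, and EDNRB, the second endothelin receptor, by 1.36 and 3.30. NPR3, the clearance receptor of natriuretic peptides, was the 1 gene of the 9 called in opposite directions on the 2 days, with -1.05 on day 1 and 2.79 on day 7.

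Between day 7 and day 1, 1 of these 9 genes rose and 5 fell, where 42.0% of all brightest probes were called, 19.4% higher and 22.5% lower. The rise was that of NPR3 (log2FC 3.84). The 3 largest falls were those of PENK (-4.07), NPPA, the precursor of atrial natriuretic peptide (-2.18), and EDNRB (-1.94). Of 5 NPPA probes 2 were called, and their log2FC ran from -2.18 to -0.29 over the 5. EDNRA is counted among the falls by its brightest probe (-1.59), but its other 2 probes were called higher, the highest with 6.04.

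Of 26 genes that carry or limit the signal of the receptors, 5 were tested. All 5 were called lower on day 1 and 3 of them on day 7, and 3 rose between day 1 and day 7. Of all brightest probes 22.0% and 13.8% were called lower on these days, and 19.4% higher between them. RGS5 and RGS4, which shorten G protein signals, had log2FC of -4.86 and -3.09 on day 1. RGS5 was well above background on only 2 of 6 day 1 arrays, so that its day 1 values are fitted ones near background. GNAI1, a subunit of an inhibitory G protein, had -3.96 on day 1 and -3.45 on day 7, and RGS4 was lowest on day 7 (-3.89). ROCK1, a kinase of contraction, had -3.17 on day 1 and -1.13 on day 7. Between day 1 and day 7 ROCK1 rose by 2.04, and PRKCA, a protein kinase C, from below background to at least 1.28-fold higher. The fitted rise of RGS5 was 4.07, from its day 1 signal near background.

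**Figure D4:**
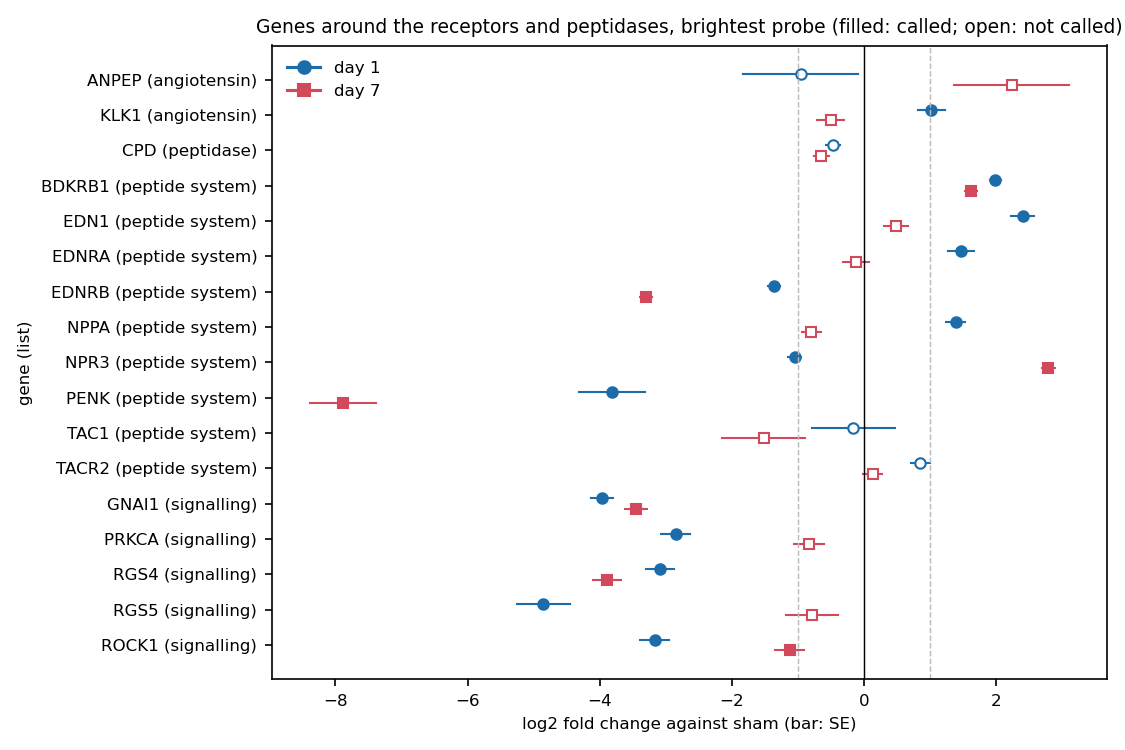
Log2 fold change against sham (horizontal axis) with its standard error (bar) on day 1 (blue circles) and day 7 (red squares) for the 17 tested genes of the 4 lists (vertical axis), by the brightest probe of each, filled where called. PENK reaches -7.89 on day 7, NPR3 lies on opposite sides of 0 on the 2 days, and all 5 signalling genes lie below 0. ANPEP and KLK1 were each kept only for the signal of 1 group. The day 1 points of RGS5 and PRKCA are fitted values from signals near or at background.

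The genes with the pattern most like each member were found by the root mean square difference of centred log2 signals over the 7 samples, among 1971 named genes. Nearest to AGTR1 were DENND2B (0.33), PLN (0.39) and TSPAN7 (0.42), with log2FC of -5.04, -5.48 and -6.37 on day 1. PLN is phospholamban, a regulator of the calcium pump in muscle. Nearest to ACE were GCH1 (0.26), STOX1 (0.31) and MYOZ1 (0.31), with log2FC of -2.11, -2.12 and -1.47 on day 7. GCH1 makes the cofactor of nitric oxide synthases.

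Nearest to AGTR2 P002911 were AP3M2 (0.18), EXOC1L (0.19) and LRRC72 (0.22), and to MME P001471 were ALDOC (0.35), ITIH3 (0.60) and SLC15A2 (0.64). These are descriptions over 7 samples that share scans and tissue content.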

How the data were processed

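For each of the 16 arrays the authors deposited the scanner output, of which the background-subtracted signal intensity of each of the 45220 spots was used. Per the file headers it was written by Agilent Feature Extraction 11.0.1.1, while the labels name version 9.1. The authors also deposited log2 values of 33670 probes, quantile-normalised in GeneSpring with dim genes filtered out, which served as an alternative and held 11 of the 15 probes.

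Control spots were removed and outlier spots set to missing (1.46% of spots on at least 1 array). Log2 signals were quantile-normalised and the spots of a probe averaged. The scanner software rated 32973 to 36319 probes of an array well above background, and 35762 probes had this rating on all arrays of 1 group or more. Precision is limited by how few arrays there are. The labels do not say whether arrays are separate animals, so the p-values measure only the spread between these samples, which may be technical.

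Arrays whose difference had at most the variance expected from replicate spots were averaged. Spot noise was first taken as 1 mean over all replicated probes, which put all day 7 arrays into 1 sample. It was then fitted against brightness over the 34 replicated probes well above background everywhere, a revision made after the first grouping was seen. Both groupings, and sham arrays kept apart, are among the alternatives.

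All 3 groups were fitted in 1 model (lmFit and eBayes, limma 3.58.1, R 4.3.3), with two-sided p-values adjusted over all probes. Pairs of probes of a gene were fitted likewise on their difference. Probes were named through RefSeq accessions with the rabbit table of assembly mOryCun1.1 (3368 probes) and the study's supplementary gene identifiers (2816). That assembly is not the build oryCun2 of the files, so no coordinates are given.

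The members and gene lists were chosen with earlier results of these data known. Named singly are all member probes, list genes of the renin-angiotensin system and the membrane peptidases, the 3 largest called rises and falls of the other lists, the 3 nearest genes of each member, and markers shown beside them. The other probes of EDNRA and NPPA were named after their values were seen. Alternatives were all arrays separate, sham arrays in pairs, the authors' values, scaling to the 75th percentile, normexp with an offset of 50, 2 other filters, 1 probe per gene, only the compared groups, the scan or replicate number as a block, and each sample left out. Scan as a fixed block, sham arrays separate and the first spot noise estimate were added after seeing the data. The scripts were tested on simulated data. Plots were made with matplotlib 3.10.9 (Python 3.11.15).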

Additional observations from a re-analysis of the deposited data

Results flagged for a closer look

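The effect of surgery against the shared sham samples differed between day 7 and day 1 for 8 of the 14 tested probes. This was the limma test of the difference itself (adjusted p below 0.05 and at least 1 on the log2 scale). Of all probes 40.5% were called in this comparison, and 5 of the 8 belong to 1 ACE transcript. For AGTR1 P002721 the day 7 effect exceeded the day 1 effect by 1.46, and for AGTR2 P003881 by 2.30. P003881 was kept only for its day 7 signal, so that its call carries no weight. For AGTR2 P002911 the difference was -1.99. For ACE it was -2.15 on P002336, -2.29 on P002337, -2.19 on P002338, -2.17 on P002339 and -2.32 on P002340. The sham samples cancel in this difference, so that it equals day 7 against day 1. No group held enough samples for a search for single outlying samples.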

How the results depend on the processing

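AGTR1 and the 5 ACE probes of the first transcript kept their calls in every comparison and under every alternative that measured them. The member counts of 9, 6 and 8 (day 7 against sham, day 1 against sham, day 7 against day 1) moved by over 1.5 times in few settings. On day 1, normexp left 1 called probe and the filter for all 16 arrays left 2 of 9, beside 14107 of 29707 over all probes. With 1 probe per gene, 3, 2 and 3 of 4 genes were called. Over all genes and transcripts these were 6059 of 19293, 9799 of 19325 and 8120 of 19295. Leaving out 1 sample gave 8 to 10, 1 to 8 and 8 to 12, with the low of 1 without day 1 sample 1 and the highs of 8 and 12 without sham sample 3. The estimate of spot noise that was replaced after its grouping was seen gave 9, 6 and 8 again, with 2 day 1 samples, 1 day 7 sample and 4 sham samples. Over 12 settings of the estimate used, the ratio of sham arrays 3 and 4 was 0.734 to 0.905.

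Pairs of probes that disagreed (9, 6 and 12 of 24) were 5, 2 and 6 with the authors' values, which lack 4 of the 5 AGTR2 probes, and 5, 0 and 5 with the filter for all 16 arrays. On day 1 normexp gave 0. For day 7 against day 1, percentile scaling gave 6 and the first spot noise estimate 4. Without 1 sample the counts were 8 to 9, 4 to 9 and 4 to 12. The pairs were not fitted with the scan as a random block.

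The other renin-angiotensin genes called (0, 1 and 2 of 2) were each kept only for the signal of 1 group, so that these counts carry no weight. They numbered 1 on day 7 against sham with all arrays separate, the scan as a random block or percentile scaling. On day 1 there were 0 with sham arrays in pairs or separate, with the first spot noise estimate and with normexp. For day 7 against day 1 there was 1 with the first spot noise estimate or percentile scaling and 0 with normexp. Without 1 sample they were 0 to 1, 0 to 1 and 1 to 2.

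Values that changed sign were small in most cases. On day 1 ACE P002337 was at -0.043 and P002338 at -0.0092 with all arrays separate, sham arrays separate or in pairs, the first spot noise estimate, or the scan as a random block. Without 1 sample they ran from -0.13 to 0.38 and from -0.092 to 0.48, and P002339 from -0.25 to 0.31, with the lows without sham sample 2 and the highs without sham sample 3. ACE P002339 was at 0.35 with percentile scaling. Percentile scaling also turned MME P001471 (-0.047) and AGTR2 P002913 (-1.16) on day 7 against day 1, and ACE P073707 (-0.23) on day 7 against sham. The cause was not tested.

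Same-numbered arrays did not deviate together (correlations -0.02 to 0.05 over 14 pairs), so the numbers pair nothing. With the replicate number as a block and all arrays separate, 13, 7 and 11 member probes were called, 10, 7 and 12 pairs disagreed, and 1, 2 and 2 other renin-angiotensin genes were called. ACE P002337 and P002338 were then at -0.045 and -0.012 on day 1.

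Percentile scaling moved the median of all probes from 0.12 to 0.48 on day 1 and from -0.03 to -0.41 on day 7 against day 1. Beside 9026 higher and 8768 lower calls on day 1 it gave 12408 and 7041, and beside 7609 and 6873 on day 7 against day 1 it gave 5675 and 12025. Normexp called 6911, 10439 and 7338 probes where 11780, 17794 and 14482 were called. Dim signals limit AGTR2 and, on day 1, MME.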
